A study of Mus musculus with 6 samples.

Results

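Psmg3 and Psmc2 are the 2 proteasome genes, of 202 genes in all, for which the authors' deposited table lists isoforms that differ in use between vehicle and BMP2. They were selected on the authors' q-values and usage differences, which decide what the table lists, and then taken by gene name. All 4 of their listed isoforms, of 302 in the table, are described. Mouse duodenal crypt organoids, cultured mini-tissues of small intestinal epithelium, came from wild-type C57BL/6 mice. On day 6 they received vehicle or 100 ng/ml BMP2, a secreted bone morphogenetic protein, and RNA was taken for bulk sequencing after 24 h. The labels give 3 libraries per condition and no genetic alteration in either, and do not say whether the libraries came from separate cultures or animals. The table holds the mean of each condition only, so the values below come without an error between replicates, and sequencing depth is not known. In bulk RNA, fewer cells of a type and less RNA per cell cannot be told apart.

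The 26S proteasome degrades proteins that carry ubiquitin chains. Its barrel-shaped 20S core holds the proteolytic sites, and its 19S cap recognises, unfolds and feeds in the substrates. Psmg3 encodes a chaperone (PAC3) that takes part in assembling the alpha ring of the core and does not stay in the finished particle. Psmc2 encodes Rpt1, an ATPase subunit of the ring at the base of the cap, and this subunit stays in the particle.

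Psmg3 (ENSMUSG00000029551.14) lies on chromosome 5. The bases that separate its listed isoforms are shown here because the isoform that gained use, Psmg3-203, is one unspliced exon, whereas Psmg3-201 is spliced from 3 exons. In GENCODE M21 (GRCm38), Psmg3-201 runs from 139823592 to 139826885 on the minus strand, has 883 bases and is annotated as protein-coding, with 366 coding bases before the stop codon. Psmg3-203 runs from 139824475 to 139826875, has 2401 bases and is annotated as retaining an intron, with no coding sequence. It keeps the whole first intron (139826365 to 139826721, 357 bases) and the first 1653 of the 2054 bases of the second intron (139824074 to 139826127), and ends inside that intron, so the final exon is missing from it. Each line below reads 5′ to 3′ on the minus strand, and the sequences come from the GENCODE M21 transcripts. Capitals mark the bases of the final exon in the first line and, in the others, the GT or AG at the intron's ends and the first stop codon in frame.

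Psmg3-201, second exon joined to the final exon: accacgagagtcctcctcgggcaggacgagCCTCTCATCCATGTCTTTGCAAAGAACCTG
Psmg3-203, second exon into second intron (chr5:139826080-139826157): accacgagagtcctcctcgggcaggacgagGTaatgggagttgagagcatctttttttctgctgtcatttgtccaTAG
Psmg3-203, start of first intron (chr5:139826692-139826721): GTgagctcggccgttttcctcatccctgat
Psmg3-203, end of first intron (chr5:139826365-139826394): cccttgttttcttttcttttaaaactaaAG

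The first 30 bases of the top pair are the same, the end of the second exon, and the letters part at the exon's border. The second exon holds 72 whole codons of Psmg3-201, which has 122. Read on in the same frame, Psmg3-203 has 15 further codons from the intron before a TAG, whose first base is base 46 of the intron. This is a reading of the letters, and no protein was measured. The first intron lies ahead of the start codon, in the 5′ untranslated part of Psmg3-201. Both introns start with GT and the first ends with AG, the usual bases of splice sites, while the end of the second lies outside Psmg3-203. The kept intron bases number 2010 in all, and 48.7% of them are G or C.

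**Figure D1:**
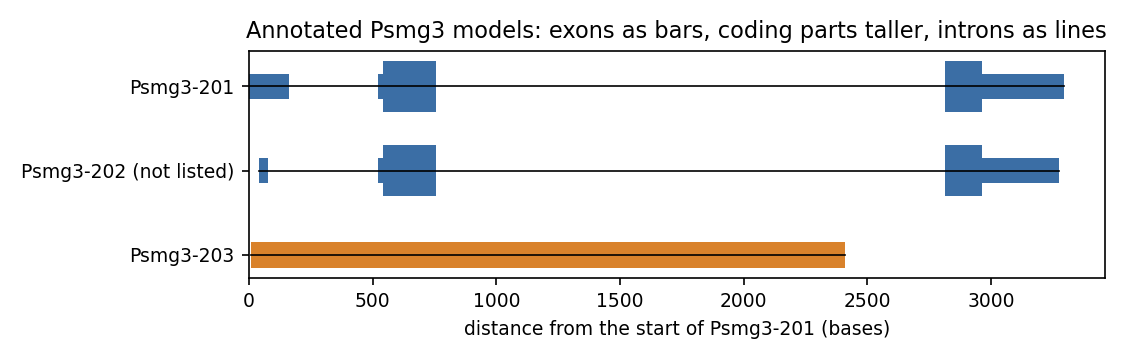
Annotated Psmg3 models, drawn to scale against the distance in bases from the start of Psmg3-201. Bars are exons, taller bars coding parts and lines introns; Psmg3-203 (orange) is a single exon that covers the first intron and ends within the second, and Psmg3-202 is annotated but not listed.

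Use of the unspliced Psmg3 isoform rose with BMP2 and use of the spliced one fell, by the authors' q-values. Usage is an isoform's share of its gene's transcripts. Psmg3-203 made up 4.4% of Psmg3 transcripts in vehicle and 32.2% in BMP2, a deposited difference of 27.7 percentage points (authors' deposited table, q = 9.26e-27). Psmg3-201 made up 85% in vehicle and 64.7% in BMP2, a difference of -20.4 points (authors' deposited table, q = 0.000628). The spliced isoform remained the most used in both conditions. What these isoforms left to all others of the gene was 10.6% in vehicle and 3.1% in BMP2. GENCODE M21 has 1 other Psmg3 model, the protein-coding Psmg3-202, which carries the same 366 coding bases as Psmg3-201 and whose 733 bases all lie within it. Psmg3-202 was not among the listed isoforms and has no value here.

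Psmc2 (ENSMUSG00000028932.9) exchanged isoforms from a starting point at which nearly all of its transcripts were of one kind. Psmc2-201, the protein-coding isoform (chromosome 5, 21785283 to 21803787, plus strand, GRCm38), has 13 exons, 1785 bases and 1425 coding bases. It made up 99.6% of Psmc2 transcripts in vehicle and 80.4% in BMP2, a difference of -19.2 points (authors' deposited table, q = 5.38e-08). The isoform ENSMUST00000239497.2 made up 0.3% in vehicle and 19.4% in BMP2, a difference of 19.1 points (authors' deposited table, q = 1.51e-07). This isoform has no match in GENCODE M21, so its exons, class and sequence are not given. The isoforms together held 99.9% of the gene in vehicle and 99.8% in BMP2, so the gain of one and the loss of the other are a single measurement seen from both sides. Such a near-complete account, at least 99% in both conditions, was found for 13 of the 90 genes with a listed gain and a listed loss. The other annotated model, Psmc2-202, could have had at most 0.1% in vehicle and 0.2% in BMP2, apart from rounding of the fractions.

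**Figure D2:**
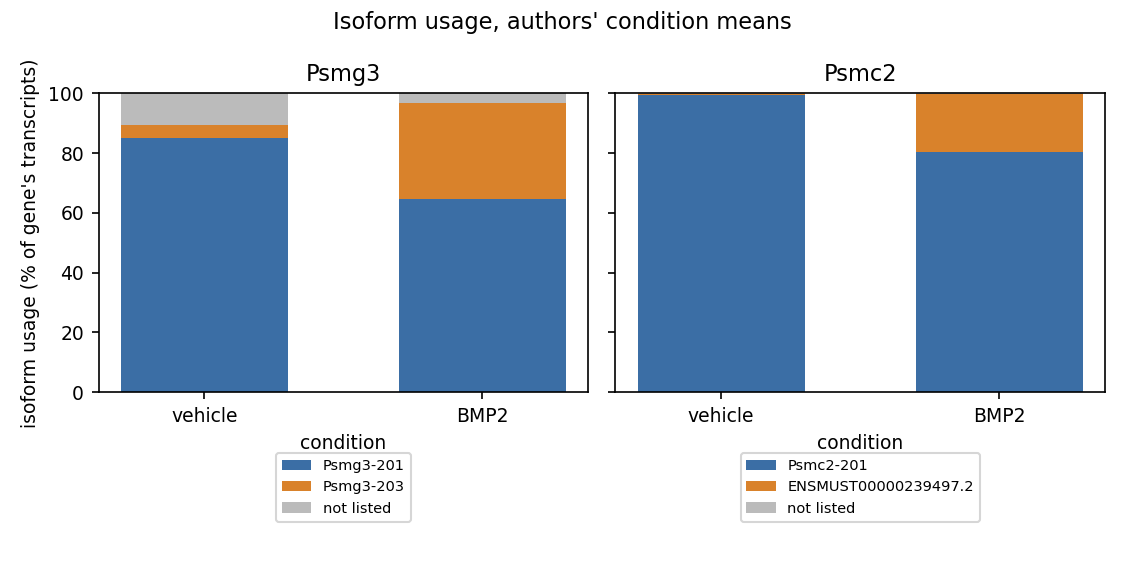
Isoform usage of Psmg3 and Psmc2 in percent of the gene's transcripts, as the authors' mean for vehicle and for BMP2, with no replicate error. In Psmg3 the orange part (Psmg3-203) goes from 4.4% to 32.2%, and in Psmc2 (ENSMUST00000239497.2) from 0.3% to 19.4%; grey is what the listed isoforms leave.

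These genes were chosen because the table lists them, so the q-values above describe the choice and test nothing further. Every listed isoform passes a q under 0.05 and an absolute difference in usage fraction of at least 0.1 (302 of 302, 100%). Of the listed isoforms 45.0% were higher and 55.0% lower in BMP2, and a listed gain beside a listed loss was found in 90 of 202 genes (44.6%), Psmg3 and Psmc2 among them. By absolute difference Psmg3-203 stood 73rd of the 302, Psmg3-201 144th, Psmc2-201 165th and ENSMUST00000239497.2 168th. The median absolute difference in usage fraction was 0.2015, so Psmg3-203 lay above it at 0.277 and the Psmc2 isoforms a little below it at 0.192 and 0.191. By the authors' ranking, Psmg3-203 stood at 6, Psmc2-201 at 64, ENSMUST00000239497.2 at 66 and Psmg3-201 at 171.

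**Figure D3:**
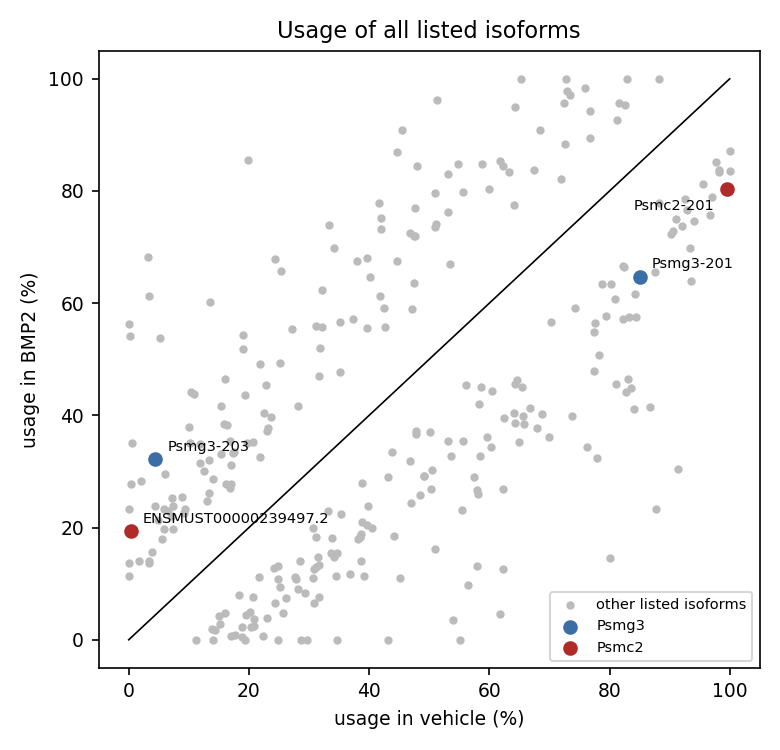
Usage in BMP2 against usage in vehicle, both in percent, for all 302 listed isoforms (grey) with those of Psmg3 (blue) and Psmc2 (red) marked; the line is equal usage. The Psmc2 isoforms lie at the far ends of the vehicle axis, at 0.3% and 99.6%, and the band along the line is empty because only differences of at least 0.101 are listed.

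A share can change because one isoform becomes more abundant or another less. Abundance in TPM (transcript abundance corrected for length and scaled to the library's total) gives a value for each isoform. TPM is itself relative to the library's total, so the parts given below hold on the TPM scale only. Psmg3-201 averaged 31.3 TPM in vehicle against 11.0 TPM in BMP2, a log2 ratio of -1.51. Psmg3-203 averaged 1.62 and 5.39 TPM, a log2 ratio of 1.73. The loss of the spliced isoform, 20.3 TPM, was thus larger than the gain of the unspliced one, 3.77 TPM, and the gain came to 18.6% of the loss. Of the pair alone, Psmg3-203 made up 4.94% in vehicle and 33.0% in BMP2. With Psmg3-201 at its BMP2 value and Psmg3-203 left at its vehicle value, that share would be 12.9%, and with only Psmg3-203 changed it would be 14.7%. Within the pair, the change in share therefore has a part from each isoform, of like size, and neither change alone reaches 33.0%. The rest of the gene, 10.6% in vehicle and 3.1% in BMP2, is outside this calculation.

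In Psmc2 the parts were less even. Psmc2-201 averaged 60.2 TPM in vehicle against 39.5 TPM in BMP2, a log2 ratio of -0.61. ENSMUST00000239497.2 averaged 0.165 and 9.51 TPM. The log2 ratio of 5.85 for this isoform rests on a vehicle value near 0 and is 3.17 once 1 TPM is added to both values. Psmc2-201 was lower by 20.6 TPM and ENSMUST00000239497.2 higher by 9.35 TPM, 45.3% of that loss. Of the pair alone, ENSMUST00000239497.2 made up 0.274% in vehicle. With only Psmc2-201 at its BMP2 value that share would be 0.416%, and with only ENSMUST00000239497.2 changed it would be 13.7%, against 19.4% with both. On the TPM scale, either change alone raises the share in both genes. In Psmc2 the higher TPM of ENSMUST00000239497.2 accounts for more of the rise than the lower TPM of Psmc2-201. The directions themselves are common in the table: mean TPM was higher in 77.9% of the 136 isoforms with a usage gain and lower in 80.1% of the 166 with a usage loss.

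**Figure D4:**
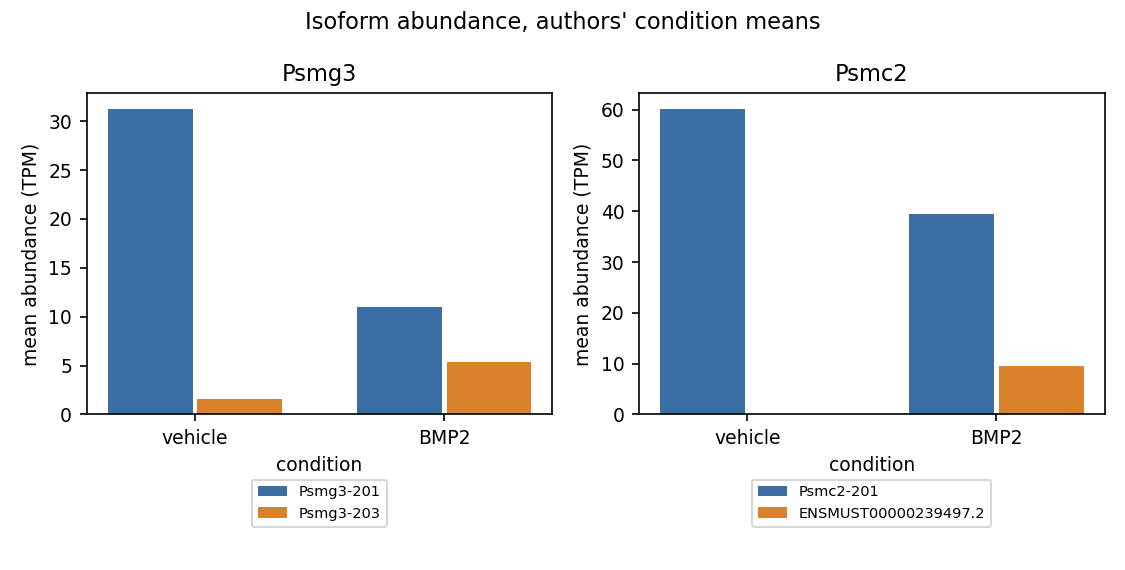
Mean abundance in TPM of the listed Psmg3 and Psmc2 isoforms in vehicle and BMP2, as the authors' condition means with no replicate error; the panels have separate vertical scales. Psmg3-201 stands at 31.3 and 11.0 TPM and Psmc2-201 at 60.2 and 39.5 TPM, while the orange isoforms are higher in BMP2.

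The level of each whole gene, which the choice of genes did not use, was derived from the listed isoforms as their total TPM divided by their total usage. Psmg3 had 36.8 TPM with vehicle and 16.9 TPM with BMP2, 2.18-fold lower. Psmc2 had 60.4 TPM with vehicle and 49.2 TPM with BMP2, 1.23-fold lower. With condition means only, these levels could not be tested. A level over 2-fold lower in BMP2 was found in 31.8% of the 195 genes with a derived level and a level over 2-fold higher in 11.3%, so a decrease such as that of Psmg3 was common among the genes listed. From the lowest ratio, Psmg3 stood 55th and Psmc2 91st of the 195, and the median log2 ratio was -0.12, against -1.12 for Psmg3 and -0.30 for Psmc2. In vehicle both genes were among the more abundant, with Psmc2 22nd and Psmg3 35th of 195, at a median of 14.9 TPM. A usage fraction is itself an isoform's TPM over that of its gene, so the isoforms of a gene return the same level apart from rounding and averaging, and their agreement is no check of it. The rounded fraction of ENSMUST00000239497.2 in vehicle alone would allow 47.2 to 66.1 TPM.

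Length bears on how many reads stand behind a TPM value. Psmg3-203 is longer than Psmg3-201, so multiplying TPM by annotated length gives it a larger part of the sequenced bases than of the transcripts. By this product, Psmg3-203 held 12.4% of the 2 listed isoforms in vehicle and 57.2% in BMP2, against 4.94% and 33.0% by TPM. Effective lengths were not used here, and the annotated versions differ from those measured, so these shares are approximate. The isoforms share 391 bases, 44.3% of Psmg3-201, and reads within them had to be divided between the isoforms. The remaining 2010 bases of Psmg3-203 are intron sequence of Psmg3-201, so reads there could also come from Psmg3 RNA not yet spliced. The origin of these reads was not tested. An annotated gene on the same strand, Gm26938, shares 237 exonic bases with Psmg3-201 (26.8%) and 280 with Psmg3-203 (11.7%), so the values of both are uncertain. The level of Gm26938 and the division of reads with it were not measured here. No exon of another annotated gene overlaps Psmc2-201.

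Among the 27 listed isoforms annotated as retaining an intron, 19 were higher and 8 lower in BMP2, beside 132 higher and 165 lower of all 297 matched isoforms, and the difference between these counts was not tested. Psmg3-203 had the fifth largest gain of the 27. It was the only 1 of the 27 with a single exon, a feature looked at after the Psmg3 structure had been seen. The median length of the 27 was 881 bases, and 8 were longer than Psmg3-203.

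The genes whose usage values lay closest to those of Psmg3 and Psmc2 were found by the distance over 4 values. These values were the fractions in vehicle and in BMP2 of the isoform with the largest gain and of that with the largest loss. The search covered the other 89 genes with both, less those with predicted, RIKEN or similar placeholder names. A gene passed over in this way can lie closer than the genes named here. The distances are descriptions of 2 condition means. Closest to Psmg3 was Mycbp, a binding partner of Myc, at a distance of 0.117: Mycbp-203 was at 13.4% and 32.1% and Mycbp-201 at 83.2% and 57.5%. Next came Lsm4, a subunit of the Lsm rings that bind RNA, at 0.128, and Rnf34, a RING-type ubiquitin ligase, at 0.136. Lsm4-203, annotated as retaining an intron, was at 5.9% and 23.4% and Lsm4-201 at 90.2% and 72.3%. Rnf34 moved between protein-coding isoforms, with Rnf34-202 at 17.6% and 33.5%. Mycbp had a derived level of 17.5 TPM with vehicle and 26.5 TPM with BMP2. Lsm4 had 128.0 and 95.4 TPM and Rnf34 had 7.57 and 7.01 TPM. The level was thus higher in Mycbp, 1.34-fold lower in Lsm4 and 1.08-fold lower in Rnf34, against 2.18-fold lower in Psmg3. Without replicate error, none of these level differences could be tested, that of Psmg3 included. A difference as small as that of Rnf34 cannot be called a decrease.

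Closest to Psmc2 was Cdt1, a licensing factor of DNA replication, at a distance of 0.0908. Cdt1-205 was at 4.8% and 21.3% and Cdt1-201 at 92.9% and 76.7%. Xrn2, a nuclear exonuclease that degrades RNA from its 5′ end, followed at 0.135, and Lsm4 at 0.142. Xrn2-203 was at 7.2% and 25.2% and Xrn2-201 at 92.1% and 73.7%. The gained isoforms of all 3 are annotated as retaining an intron, while the class of the gained Psmc2 isoform is not known here. Levels differed among them: Cdt1 had 28.1 TPM with vehicle and 4.41 TPM with BMP2, and Xrn2 had 46.7 and 36.4 TPM.

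A list of 71 genes was drawn up for the proteasome and part of the ubiquitin pathway. It includes core and cap subunits, activators, assembly chaperones, ubiquitin genes and shuttle factors. Not every gene of the ubiquitin pathway is on it: the ligase Rnf34, described above, is among the listed genes but not among these 71. The number of genes tested is not known, so no share over all genes can be set beside the count. Of the 71, the table used here holds Psmg3 and Psmc2. Isoform use of the other 69 was not analysed here. None of 36 markers of intestinal epithelium, its cell types and neighbouring tissues is among the listed genes either, so the labelled tissue could not be checked against its markers in these values.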

How the data were processed

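Bulk RNA sequencing of 6 organoid libraries, 3 per condition, was used. The tool named is kallisto 0.46.1 and the build mm39, per the submitters' processing notes. The deposited table gives, per the file headers, the authors' usage fraction of each isoform per condition, the authors' q-value and the authors' mean TPM. Its column names are those of IsoformSwitchAnalyzeR. For its version, annotation, test, filters and strandedness, the sources used here say nothing. In the table q stays under 0.05, the absolute usage difference starts at 0.101 and mean TPM starts at 1.00. The printed difference departs from that of the rounded fractions by at most 0.001.

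The design planned a permutation test over libraries. With condition means only, the authors' q-values were given instead. If the libraries were not separate cultures, these measure technical spread. Percent usage is 100 times the fraction. Isoforms were matched by stable identifier to GENCODE M21 (GRCm38), for 297 of 302 and 3 of the 4 of Psmg3 and Psmc2. Identifier versions differ, also for the matched Psmg3 and Psmc2 isoforms, so exons, ends and lengths may too. No coordinate was converted between builds. The members, lists and tests were chosen with earlier results of these data known. Named genes were Psmg3 and Psmc2, listed genes of the proteasome list, and the 3 genes nearest to each member. Among the nearest genes, predicted, RIKEN and similar placeholder names were passed over. Python 3.11.15, pandas 2.3.3, numpy 2.4.6 and matplotlib 3.10.9 were used, and the level calculation was tested on simulated data. All isoforms of each simulated gene were listed, so only the effect of rounding the fractions was checked. Incomplete listing and averaging over libraries were not covered. Alternatives were other thresholds, pseudocounts and ways to derive levels.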

Additional observations from a re-analysis of the deposited data

How the results depend on the processing

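The q-values of all 4 isoforms were also under 0.01. Requiring no minimum difference could not remove any of them, because it only loosens a rule that all had passed. The genes were chosen on these same values, so other cuts on them are a description only. With a difference over 0.2 required, Psmc2-201 (-0.192) and ENSMUST00000239497.2 (0.191) no longer passed, and Psmg3-201 passed at -0.204. The log2 TPM ratios with a pseudocount of 1 TPM were 1.28 for Psmg3-203, -1.43 for Psmg3-201, -0.59 for Psmc2-201 and 3.17 for ENSMUST00000239497.2, and with 0.1 TPM they were 1.67, -1.50, -0.60 and 5.18. The log2 level ratios from the most used isoform, from the median over isoforms and with a pseudocount of 1 TPM were -1.12, -1.13 and -1.08 for Psmg3 and -0.30, -0.30 and -0.29 for Psmc2. Agreement between the most used isoform and the median follows from how usage is defined, so it is no check of the level. With no spread between libraries known, none of these shifts could be set against an error. Over all listed isoforms, 73 were higher and 80 lower at a difference over 0.2, and 75 and 91 at a mean TPM of at least 5. No paired analysis was possible because the table holds condition means, and for the same reason no library could be left out. Usage could not be recomputed from gene values, as the table used here gives none. Depth, and so the precision of a fraction, is unknown.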
